A study of Mus musculus with 34 samples.

Results

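The Cyp3a genes of the mouse encode cytochrome P450 enzymes of family 3, subfamily a. Messenger RNA of 8 of them (Cyp3a11, Cyp3a13, Cyp3a16, Cyp3a25, Cyp3a41a, Cyp3a41b, Cyp3a44 and Cyp3a59) was examined in 34 livers, out of 35976 gene symbols in the expression table. The members are Cyp3a genes picked by symbol, with earlier results of these data known. The livers came from C57BL/6 mice that were homozygous for TetO-Cas9, a Cas9 gene under a tetracycline-responsive promoter, and for Rosa-rtTA, the transactivator that drives it from the Rosa locus. All mice, controls included, had received an adeno-associated virus (AAV) with a guide RNA and were fed a Western diet for 3 months. The guide RNA was directed at Bcl6 (5 livers), Irs1 (5), Smyd2 (6), Srebf1 (5) or Tbx3 (7), and these groups are called knockouts (KO) after their labels. The 6 control livers had received guides against GFP (sgGFP, 4 livers) or LacZ (sgLacZ, 2), sequences foreign to the mouse, and were pooled. The position of the guides, the share of liver cells edited, the inducing treatment, and the sex and age of the mice are not stated in the labels.

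CYP3A enzymes sit in the endoplasmic reticulum, mainly of hepatocytes, and oxidise drugs, steroid hormones and bile acids with electrons passed on by the reductase encoded by Por. Their genes are induced through the nuclear receptors PXR (Nr1i2) and CAR (Nr1i3), which sense foreign compounds and bile acids. In the mouse, Cyp3a11 is a main drug-metabolising form of adult liver, Cyp3a16 is known from fetal and newborn liver, and Cyp3a41 and Cyp3a44 are known for higher levels in females, under the control of growth hormone. Cyp3a13 is found in liver and intestine.

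In GRCm38 with the GENCODE M21 annotation, 7 members form a cluster of 677.0 kb on chromosome 5, from 145436309 to 146113287. Their order is Cyp3a16, Cyp3a41b, Cyp3a41a, Cyp3a44, Cyp3a11, Cyp3a25 and Cyp3a59. The first 6 lie on the minus strand and Cyp3a59 lies on the plus strand. Cyp3a13 lies apart, 7514.7 kb before the cluster (chromosome 5, 137892932 to 137921619, minus strand). All 8 are annotated as protein-coding.

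The members fall into 2 sequence classes and a lone gene, which is seen in the bases before their starts. A RefSeq promoter window of 250 bases (GRCm38.p6) was found for 8 of 8 members. The 6 windows printed here stand for the cluster: Cyp3a16, Cyp3a41a, Cyp3a44, Cyp3a11 and Cyp3a59, whose levels are described at length, and Cyp3a25, the closest relative of Cyp3a59. That of Cyp3a41b is nearly the same as that of Cyp3a41a. They are written 5′ to 3′ in the direction of transcription, with the bases that GENCODE places inside the gene left out. Capitals mark exact matches, on either strand, to the searched motifs. The windows are chr5:145469724-145469973 for Cyp3a16, chr5:145720137-145720386 for Cyp3a41a, chr5:145805875-145806124 for Cyp3a44, chr5:145879965-145880104 for Cyp3a11 and chr5:146009619-146009868 for Cyp3a25, all on the minus strand, and chr5:146079008-146079256 on the plus strand for Cyp3a59.
Cyp3a16: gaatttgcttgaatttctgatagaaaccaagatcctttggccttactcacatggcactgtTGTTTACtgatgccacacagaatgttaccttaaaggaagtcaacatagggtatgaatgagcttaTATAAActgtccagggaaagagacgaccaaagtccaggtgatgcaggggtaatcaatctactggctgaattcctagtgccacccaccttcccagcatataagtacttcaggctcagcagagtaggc
Cyp3a41a: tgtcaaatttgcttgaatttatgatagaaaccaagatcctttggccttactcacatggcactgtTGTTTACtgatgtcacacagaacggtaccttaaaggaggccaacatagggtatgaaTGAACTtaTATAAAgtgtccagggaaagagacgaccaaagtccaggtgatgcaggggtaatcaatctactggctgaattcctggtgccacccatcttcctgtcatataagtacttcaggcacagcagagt
Cyp3a44: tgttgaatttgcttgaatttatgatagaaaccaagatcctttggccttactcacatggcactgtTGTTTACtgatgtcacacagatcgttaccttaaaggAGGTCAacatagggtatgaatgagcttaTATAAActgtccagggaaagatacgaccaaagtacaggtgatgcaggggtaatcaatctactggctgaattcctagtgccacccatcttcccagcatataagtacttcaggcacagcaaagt
Cyp3a11: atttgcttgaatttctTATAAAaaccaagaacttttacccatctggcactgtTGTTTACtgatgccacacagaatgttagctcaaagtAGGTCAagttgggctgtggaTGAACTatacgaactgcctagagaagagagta
Cyp3a25: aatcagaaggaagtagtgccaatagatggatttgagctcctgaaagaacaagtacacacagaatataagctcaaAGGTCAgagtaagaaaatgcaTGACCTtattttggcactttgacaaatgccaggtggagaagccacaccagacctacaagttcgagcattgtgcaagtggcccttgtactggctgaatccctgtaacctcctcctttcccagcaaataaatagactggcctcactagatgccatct
Cyp3a59: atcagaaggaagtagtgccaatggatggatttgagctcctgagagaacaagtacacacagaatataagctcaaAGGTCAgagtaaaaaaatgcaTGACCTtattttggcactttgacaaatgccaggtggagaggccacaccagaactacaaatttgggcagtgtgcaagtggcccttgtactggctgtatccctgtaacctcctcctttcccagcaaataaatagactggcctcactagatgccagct

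The motifs searched were TGTTTAC (bound by FOXA factors), TATAAA (a box of core promoters), AGGTCA (a half-site used by nuclear receptors such as PXR and CAR), its variant AGTTCA, TTCNNNGAA (the STAT5 consensus) and, as a special case of the latter, TTCCTNGAA (a BCL6 core). In Cyp3a16, Cyp3a41a, Cyp3a41b and Cyp3a44 the letters TGTTTAC and TATAAA occurred at nearly the same places. TGTTTAC lay at -190 in Cyp3a16 and at -186 in the others, where -1 is the base before the RefSeq start. TATAAA lay at -126 in Cyp3a16 and at -122 in the others. These are matches of letters, and whether any TATAAA here acts as a TATA box was not tested. Cyp3a11 held TGTTTAC at -198, but its TATAAA lay before it, at -234. Cyp3a11 has a RefSeq start inside the GENCODE gene, so its positions are not aligned with the others. TGTTTAC was present in 3.17% and TATAAA in 12.4% of 32851 RefSeq windows of the same length. Cyp3a25 and Cyp3a59 held neither, and each carried AGGTCA once on either strand. AGGTCA was also found once in Cyp3a44 and Cyp3a11, and occurred in 14.0% of all windows. AGTTCA, found in 11.8% of all windows, was present in Cyp3a41a, Cyp3a41b and Cyp3a11. TTCNNNGAA (7.02% of all windows) and TTCCTNGAA (1.31%) were in none of the member windows. The window of Cyp3a13 held none of the searched motifs. The 250-base windows of Cyp3a16 and Cyp3a44 were 95.9% identical, those of Cyp3a41a and Cyp3a41b 99.6%, and those of Cyp3a25 and Cyp3a59 95.6%, whereas Cyp3a11 shared 79.1% with Cyp3a44 and Cyp3a16 shared 61.5% with Cyp3a25.

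The transcripts fell into the same classes, which sets how far reads can be told apart. The annotated transcripts of Cyp3a41a and Cyp3a41b were 99.9% identical, and 93.7% of the 50-base windows of Cyp3a41a occurred letter for letter in Cyp3a41b. Cyp3a25 and Cyp3a59 were 97.0% identical and shared 24.6% of the 50-base windows of Cyp3a25. Cyp3a16 shared 10.5% of such windows with any other Cyp3a transcript, Cyp3a44 18.2% and Cyp3a11 14.7%. Cyp3a13 shared 0 of 2907 windows and was 72.6% identical to Cyp3a16. The labels do not say how reads that match several genes were counted. The split of signal between Cyp3a41a and Cyp3a41b is therefore uncertain. To a lesser degree, so is that between Cyp3a25 and Cyp3a59, and that between Cyp3a44 and the far more abundant Cyp3a11.

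**Figure D1:**
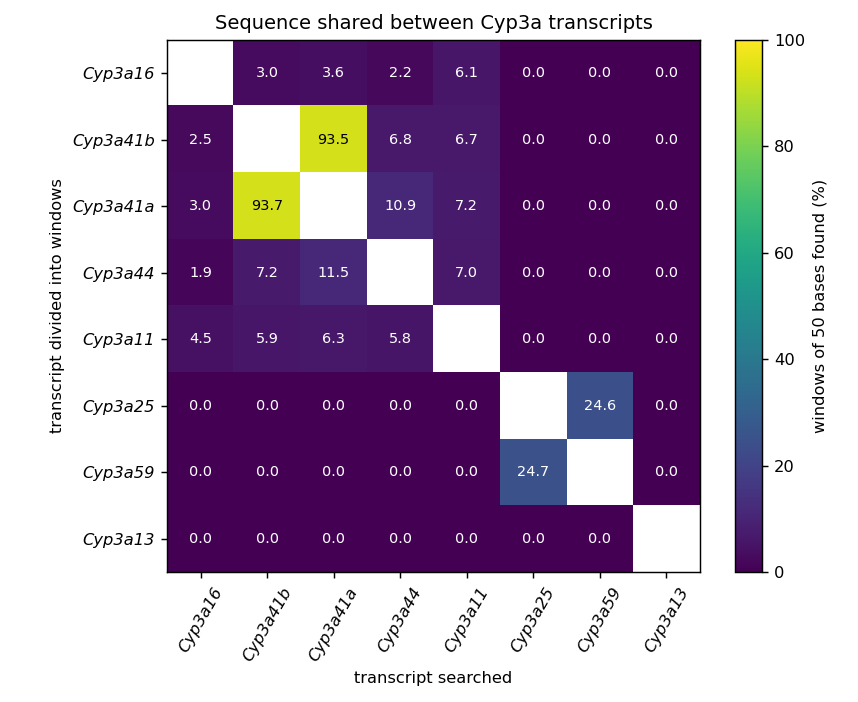
Share of the 50-base windows of each transcript (rows) that occur in each other transcript (columns), in percent, for the GENCODE transcripts of the 8 members. Cyp3a41a and Cyp3a41b share 93.7% and 93.5%, Cyp3a25 and Cyp3a59 share 24.6% and 24.7%, and Cyp3a13 shares none.

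From the steps between low values, the depth was estimated at 2110000 to 3130000 counted reads for a library. The targeted mRNA was examined in every knockout liver, and its level passed the test in none of the 5 comparisons, although a guide need not lower the amount of the mRNA it edits. Bcl6 stood at 46.7 to 100.1 FPKM in its own knockout against 27.1 to 104.1 in control, Irs1 at 25.4 to 35.8 against 20.2 to 27.6, Smyd2 at 61.7 to 121 against 81.6 to 147, and Tbx3 at 80.1 to 248 against 45.9 to 147. Srebf1 stood at 515.9, 498.8, 526.7 and 631.7 FPKM in Srebf1 KO replicates 2 to 5, all below the control range of 1095 to 2177. The library labelled Srebf1 KO replicate 1 stood at 1908 FPKM, inside that range and unlike replicates 2 to 5. It was kept under its label, which the mRNA level alone cannot check. The hepatocyte markers Alb, Apoa1, Ttr, Tat, Cps1, Cyp2e1 and Hnf4a were all present, at a sum of 61883.5 FPKM or more in each library. Of the intestinal markers, Alpi was at 0 in 34 of 34 libraries and Lct and Sis reached at most 0.494 and 0.216 FPKM. In whole liver, fewer cells of a type and less RNA per cell cannot be told apart. No statement in the labels says that the livers are separate animals, so the p-values measure the spread between these samples.

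In control livers, 2 members made up nearly all of the summed Cyp3a FPKM. FPKM are fragments scaled by transcript length and library size, and the lengths used are not stated. In sgGFP replicate 2 the smallest step was 0.452 FPKM for Cyp3a16 and 0.186 for Cyp3a41a. Their annotated transcripts, of 1730 and 2060 bases, lie closer together than these steps. Levels and shares of different members are therefore only roughly comparable. Cyp3a25 took 61.3% ± 6.16 (SD, n = 6) of the summed FPKM of the 8 members and Cyp3a11 took 36.1% ± 6.44. The next were Cyp3a13 at 1.46% ± 0.263 and Cyp3a59 at 0.966% ± 0.199. Cyp3a44 took 0.132% ± 0.0358, Cyp3a16 0.0114% ± 0.0101 and Cyp3a41a 0.00176% ± 0.00163, and Cyp3a41b was listed at 0. The order of levels in FPKM was Cyp3a25 (5943 ± 1217), Cyp3a11 (3451 ± 569), Cyp3a13 (142 ± 39.8), Cyp3a59 (94.5 ± 31.1), Cyp3a44 (13.1 ± 5.31), Cyp3a16 (1.19 ± 1.198) and Cyp3a41a (0.158 ± 0.145). The ranges of Cyp3a13 (104.8 to 213 FPKM) and Cyp3a59 (65.4 to 154) overlapped, and those of the other neighbours down to Cyp3a16 did not. The values of Cyp3a16 in control livers stood at 1 to 7 times the smallest step between its values in a library, so its control level lies at the lower limit of the table. Between sgLacZ and sgGFP no member differed by limma, with adjusted p-values from 0.818 to 1, where 0.0104% of 19295 tested genes passed.

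**Figure D2:**
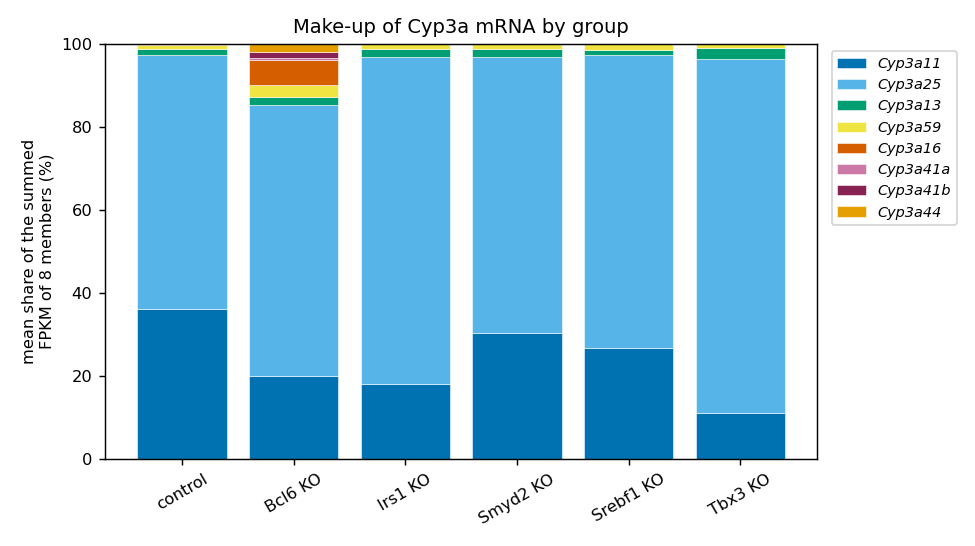
Mean share of each member in the summed FPKM of the 8 members, in percent, by group (6 control livers and 5 to 7 livers per knockout). Cyp3a11 takes 36.1% in control and 11.0% in Tbx3 KO, and the 4 members Cyp3a16, Cyp3a41a, Cyp3a41b and Cyp3a44 are visible in Bcl6 KO.

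Changes were tested on log2(FPKM + 1) with limma, an approach that fits all 34 livers and 19295 genes together, and a gene was called at a Benjamini-Hochberg adjusted p under 0.05. On this scale the change of a low gene is understated. All 8 members differed among the 6 groups by the F test, where 16.7% of all tested genes did so. Of these 8, Cyp3a41a and Cyp3a41b were bound to differ through the filter, as set out below. The F test gave adjusted p-values of 0.0372 for Cyp3a25 and 0.0250 for Cyp3a13. They were at most 9.74e-07 for Cyp3a11, Cyp3a16, Cyp3a44 and Cyp3a59. Of these calls, those of Cyp3a25 and Cyp3a13 were lost after median scaling (adjusted p = 0.104 and 0.0621). Cyp3a25 was also lost with no filter on low values (0.0625), with no intensity trend (0.0545) and with sgGFP livers alone as control (0.0534). Its call was lost as well without any 1 of Bcl6 KO replicates 3 and 4, Srebf1 KO replicates 2 to 5 and Tbx3 KO replicates 3, 4 and 6 (adjusted p = 0.0521 to 0.0937), and that of Cyp3a13 without Bcl6 KO replicate 1, 3 or 4 (0.0624 to 0.0790). Cyp3a11, Cyp3a16, Cyp3a44 and Cyp3a59 passed under the alternatives run. Cyp3a41a and Cyp3a41b reached the filter on low values, an FPKM of 1 in 5 libraries, through the Bcl6 KO livers alone, so their calls are fixed by the filter. They are counted below but their values are given as a description, without a p-value. Each knockout was compared with the same 6 control livers, and a difference between knockouts was therefore tested directly.

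**Figure D3:**
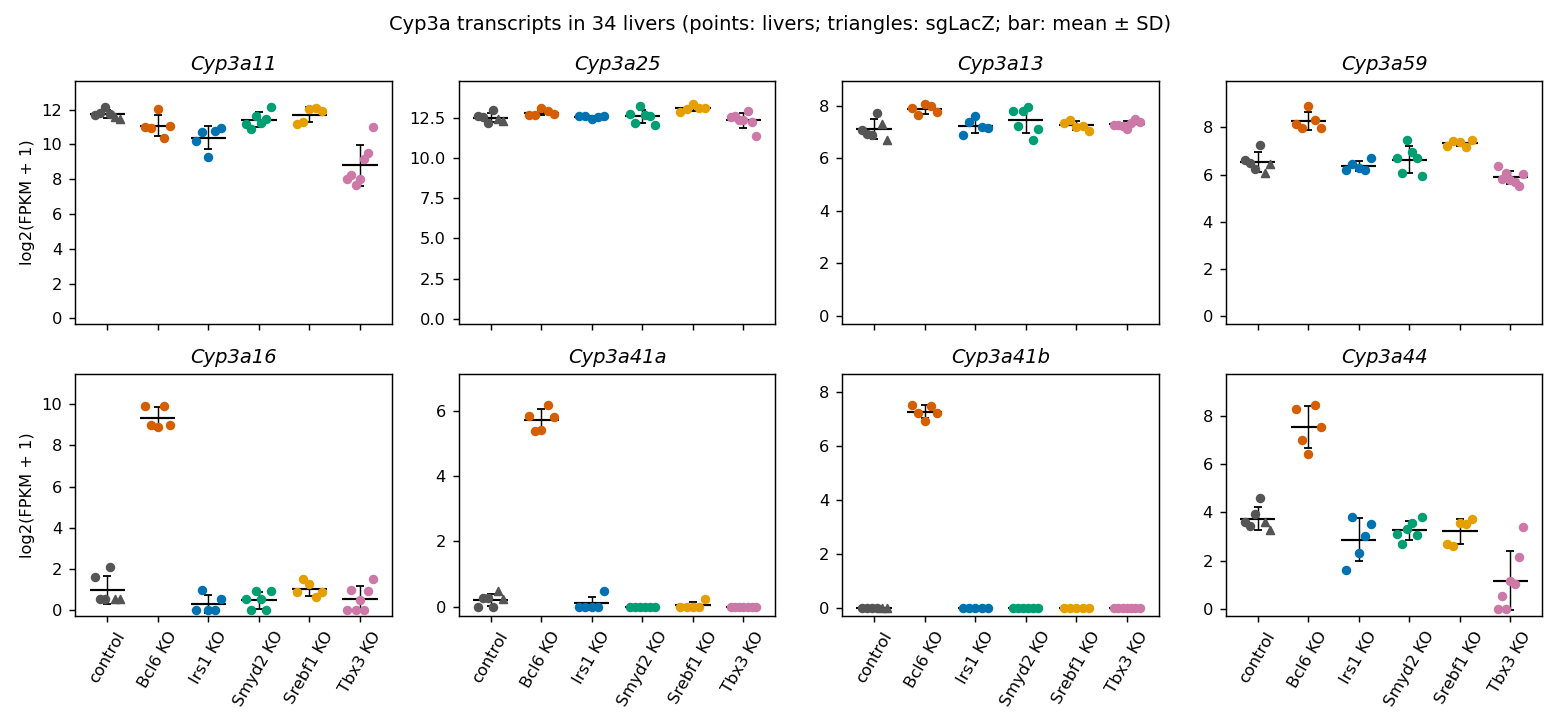
Level of each member, log2(FPKM + 1), in each of the 34 livers (points, triangles for sgLacZ), with the mean and SD per group. Cyp3a16, Cyp3a41a, Cyp3a41b and Cyp3a44 are high in the 5 Bcl6 KO livers, and Cyp3a11 is low in 6 of 7 Tbx3 KO livers.

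In Bcl6 KO livers, 6 members were higher than in control and 0 were lower, where 2.95% of all tested genes were higher and 3.19% lower, 6.14% in all. BCL6 is a transcriptional repressor. Cyp3a41a and Cyp3a41b are 2 of these 6 and were bound to differ through the filter, which leaves 4 of the other 6 members. The largest increases were in the 4 neighbours Cyp3a16, Cyp3a41b, Cyp3a41a and Cyp3a44 at the start of the cluster. The major forms Cyp3a11 and Cyp3a25 were not called.

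Cyp3a16, the fetal form, stood at 946, 506, 478, 970.3 and 503 FPKM in Bcl6 KO replicates 1 to 5. In control livers the lowest value was 0.444, the median 0.460 and the highest 3.25 FPKM. No Bcl6 KO liver came near the control range, and replicates 1 and 4 stood above the other 3. The difference was 8.36 on the log2(FPKM + 1) scale (SE 0.33, limma adjusted p = 1.16e-19).

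Cyp3a41a and Cyp3a41b, the near-identical pair, were seen almost only in this group. Cyp3a41a stood at 55.8, 40.7, 41.6, 70.8 and 54.8 FPKM in replicates 1 to 5, against a control range of 0 to 0.387 with a median of 0.185. Its difference was 5.52 (SE 0.16). Cyp3a41b stood at 179, 146, 121, 178 and 146 FPKM and was listed at 0 in 29 of 29 livers of the other groups, so no fold is given. The Cyp3a41b value was 2.51 to 3.59 times that of Cyp3a41a in the 5 livers. As the pair may share reads, both were also summed: the sum was 207 ± 35.1 FPKM (SD, n = 5) against 0.158 ± 0.145 (n = 6), a difference of 7.48.

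Cyp3a44 stood at 314, 125, 85.3, 344 and 184 FPKM in Bcl6 KO replicates 1 to 5. Control livers had a lowest value of 8.78, a median of 11.1 and a highest of 23.1 FPKM. The groups did not overlap, and the highest Bcl6 KO livers were again replicates 1 and 4. The mean was 16.1 times that of control, and the log2 difference was 3.79 (SE 0.47, limma adjusted p = 6.10e-07). Summed, Cyp3a16, Cyp3a41a, Cyp3a41b and Cyp3a44 rose from 14.4 ± 6.22 to 1098 ± 398 FPKM. This sum includes Cyp3a41a and Cyp3a41b, whose calls are fixed by the filter, so no p-value is given. Cyp3a16, Cyp3a41a, Cyp3a41b and Cyp3a44 made up a mean of 6.15%, 0.475%, 1.39% and 1.92% of the summed Cyp3a FPKM in this group.

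Cyp3a59, at the far end of the cluster, stood at 282, 253, 474, 315 and 249.6 FPKM in Bcl6 KO replicates 1 to 5. Its control values had a lowest of 65.4, a median of 88.2 and a highest of 154 FPKM. Each Bcl6 KO liver lay above each control liver, and replicate 3 was the highest. The mean was 3.33 times that of control (log2 difference 1.74, SE 0.21, limma adjusted p = 5.56e-07). Its near relative Cyp3a25 stood at 6491, 6706, 8732, 7899 and 6976 FPKM against a control range of 4592 to 8094, a difference of 0.32 (95% interval -0.06 to 0.71, limma adjusted p = 0.384). Cyp3a59 amounted to 4.22% ± 0.732 of Cyp3a25 in the same liver (range 3.58% to 5.43%), against 1.57% ± 0.246 in control (1.17% to 1.90%). The ranges did not overlap. This ratio was chosen after its values were seen and is given as a description. A test of it was run but is not used, for that reason. Summed with Cyp3a25, which is far more abundant, Cyp3a59 no longer gave a call (difference 0.36, limma adjusted p = 0.316).

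Cyp3a13, the member apart from the cluster, stood at 243, 200.4, 269, 256 and 218 FPKM in Bcl6 KO replicates 1 to 5. Its control values had a lowest of 104.8, a median of 128 and a highest of 213 FPKM. The groups overlapped, through Bcl6 KO replicate 2 and sgGFP replicate 4. The mean was 1.67 times that of control (log2 difference 0.77, SE 0.17, limma adjusted p = 0.00459). Cyp3a11 stood at 2012, 1978, 4197, 1317 and 2136 FPKM against 2839 to 4470 in control. Bcl6 KO replicates 1, 2, 4 and 5 lay below the control range and replicate 3 lay within it. The difference of -0.66 did not pass (95% interval -1.47 to 0.15, limma adjusted p = 0.401).

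The sum of the 8 members was 11339 ± 1782 FPKM in Bcl6 KO (n = 5) and 9645 ± 1301 in control (n = 6), a difference of 0.23 that did not pass (limma adjusted p = 0.410). In direct comparisons, Bcl6 KO livers were higher than Irs1 KO in 6 members (11.3% of all genes differed), than Smyd2 KO in 5 (5.83%), than Srebf1 KO in 6 (8.76%) and than Tbx3 KO in 7 (9.31%). Cyp3a16, Cyp3a41a, Cyp3a41b, Cyp3a44 and Cyp3a59 were among them in each of the 4 comparisons, Cyp3a41a and Cyp3a41b with the same limit of the filter. Cyp3a13 was higher than in Irs1, Srebf1 and Tbx3 KO (limma adjusted p = 0.0210, 0.0266 and 0.0249) but was not called against Smyd2 KO (0.171). Hepatocyte markers moved with this group: 5 of 7 were higher. Alb, which makes up most of their sum, stood at 131469 FPKM against 45811 in control. Ttr (10114 against 11612) and Cyp2e1 (2400 against 3677) were not called. Endothelial markers were higher in 3 of 5 and summed to 564 to 683 FPKM against 441 to 595. The part of either in the Cyp3a result was not tested. Among all genes called in Bcl6 KO, 48.1% were higher, and 66.5% after scaling libraries to their median. The calls of the 8 members against control did not change with that scaling or with quantile normalization.

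**Figure D4:**
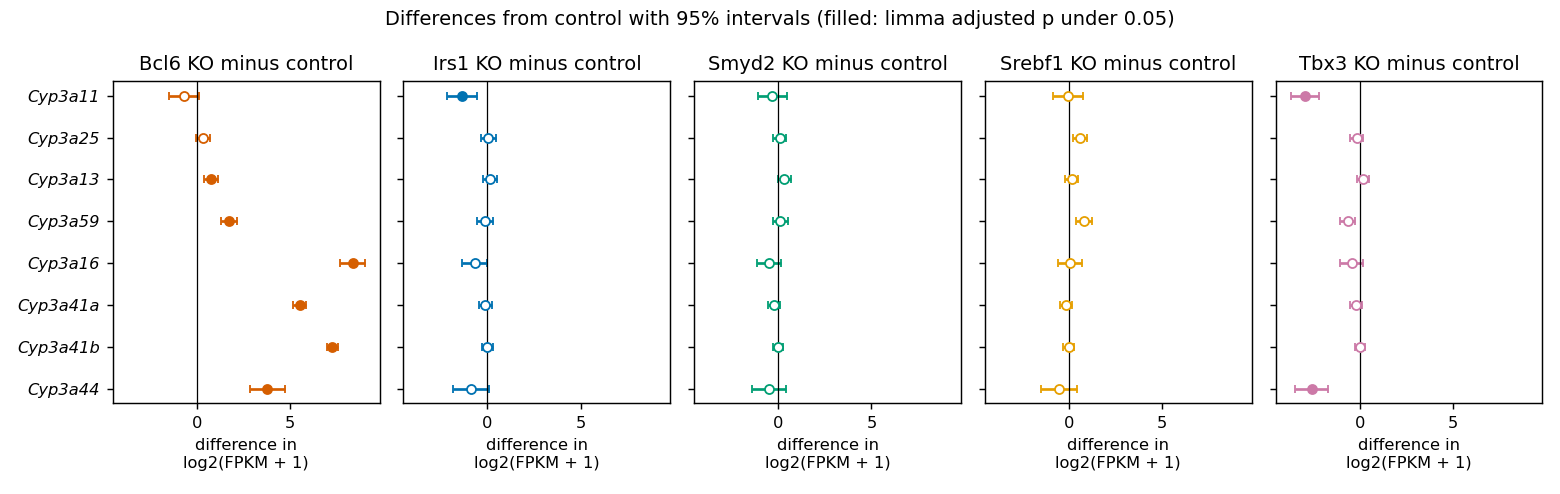
Difference of each knockout from control in log2(FPKM + 1), with 95% intervals, for the 8 members; filled points have a limma adjusted p under 0.05. The 6 filled points of Bcl6 KO lie to the right, Cyp3a11 lies to the left in Irs1 KO, and Cyp3a11 and Cyp3a44 lie to the left in Tbx3 KO.

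In Tbx3 KO livers, 2 members were lower than in control, where 1.37% of all tested genes were lower, and 0 were higher, where 1.17% were (2.54% in either direction). TBX3 is a T-box transcription factor. The members were Cyp3a11 and Cyp3a44, which lie next to each other. Their annotated transcripts were 93.5% identical, and 6.95% of the 50-base windows of Cyp3a44 occurred in Cyp3a11. As Cyp3a11 is far more abundant and reads may be shared, the 2 calls may not be separate results. The part of shared reads in the Cyp3a44 values was not tested. Cyp3a11, the main drug-metabolising form, stood at 259, 299, 199.7, 261, 577, 714 and 2051 FPKM in replicates 1 to 7, a median of 299. Its control values had a lowest of 2839, a median of 3366 and a highest of 4470 FPKM. All 7 Tbx3 KO livers lay below all controls, replicates 1 to 6 by a wide margin and replicate 7 by less. The mean was 0.180 times that of control (log2 difference -2.94, SE 0.36, limma adjusted p = 5.01e-06).

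Cyp3a44 in Tbx3 KO had a lowest value of 0, a median of 1.05 and a highest of 9.56 FPKM, and was at 0 in replicates 1 and 3. Replicate 7, at 9.56, overlapped the control range of 8.78 to 23.1, and the other 6 livers lay below it. The difference was -2.56 (SE 0.43, limma adjusted p = 0.000514). The values of replicates 1 to 6 stood at 0 to 8.38 times the smallest step and so lie near the lower limit of the table. Replicate 7 was thus the highest of its group in both genes, and it was the lowest in Cyp3a25, at 2683 FPKM against 4815 to 7737 in the others. It was also the deepest library, at 3130000 implied reads, and the part of depth in these values was not tested. Without it the differences were -3.31 for Cyp3a11 and -2.93 for Cyp3a44 (limma adjusted p = 7.77e-09 and 8.10e-06).

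Cyp3a25 was not called in Tbx3 KO (5451 ± 1558 FPKM, n = 7, difference -0.16, 95% interval -0.52 to 0.19, limma adjusted p = 0.678), nor were Cyp3a13 (158 ± 13.6, adjusted p = 0.579) and Cyp3a16 (adjusted p = 0.498). Cyp3a59 stood at 44.8 to 81.5 FPKM with a median of 54.9, against 65.4 to 154 in control, a difference of -0.63 that did not pass (SE 0.20, limma adjusted p = 0.0734). It passed without Tbx3 KO replicate 7 (-0.66, adjusted p = 0.0451) and without sgLacZ replicate 1 (-0.73, adjusted p = 0.0481). The share of Cyp3a11 in the summed Cyp3a mRNA had a mean of 11.0% ± 13.7 (range 3.51% to 41.2%) and that of Cyp3a25 a mean of 85.4% ± 14.3. The sum of the 8 members was 6295 ± 1164 FPKM in Tbx3 KO (n = 7) and 9645 ± 1301 in control (n = 6), a fall of 0.62 on the log2 scale (adjusted p = 0.00529), and in the other knockouts the sum was not called. Hepatocyte markers summed to 70769.7 to 83521 FPKM in Tbx3 KO, with 2 of 7 higher (Hnf4a and Cps1) and 0 lower, and of 5 stellate cell markers Lrat was lower. After median scaling 3 stellate markers were lower and 3 hepatocyte markers higher. Without Tbx3 KO replicate 7 these counts were also 3 and 3, and 1 of 5 cholangiocyte markers was lower. Their part in the result was not tested. After median scaling, 70.0% of the genes called in Tbx3 KO were higher, against 45.9% without it, and the calls of the 8 members did not change.

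Set directly against the other knockouts, Tbx3 KO livers were lower than Irs1 KO in Cyp3a11 and Cyp3a44 (2.81% of all genes differed) and lower than Smyd2 KO in the same 2 members (0.902%). They were lower than Srebf1 KO in 4 members, Cyp3a11, Cyp3a44, Cyp3a25 and Cyp3a59 (0.943%). For Cyp3a11 these differences, taken as the other group minus Tbx3 KO, were 1.57 (Irs1 KO, limma adjusted p = 0.0191), 2.63 (Smyd2 KO, 5.57e-05) and 2.90 (Srebf1 KO, 1.50e-05).

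In Irs1 KO livers, Cyp3a11 was the 1 member that was lower than in control, where 7.61% of all tested genes were lower, and 0 members were higher, where 3.24% were (10.9% in either direction). IRS1 is an adaptor of the insulin receptor. Cyp3a11 stood at 1165, 1657, 629, 1718 and 1961 FPKM in replicates 1 to 5, against 2839 to 4470 in control. No Irs1 KO liver reached the control range, and replicate 3 was the lowest. The mean was 0.413 times that of control (log2 difference -1.36, SE 0.40, limma adjusted p = 0.0239). With 1 liver left out the difference stayed at -1.10 or beyond, but the call was lost without Irs1 KO replicate 3 (-1.10, adjusted p = 0.0885), without Irs1 KO replicate 1 (-1.32, 0.0540) and without sgGFP replicate 3 (-1.29, 0.0537). Cyp3a44 stood at 2.11 to 13.0 FPKM, overlapping the controls (difference -0.87, limma adjusted p = 0.242). Cyp3a25, at 5523 to 6387 FPKM, had a difference of 0.05 with a 95% interval of -0.33 to 0.44. Cyp3a41a was at 0 in replicates 1 to 4 and at 0.380 FPKM in replicate 5. The direction of calls over all genes depended on scaling in this comparison: 29.8% were higher in the values as deposited, 68.6% after median scaling and 49.3% after quantile normalization, and the median over all genes moved from -0.12 to 0.08 and 0.02. Cyp3a11 was lower under both. In the same livers 4 of 7 hepatocyte markers were higher, at a sum of 71306 to 107031 FPKM against 61883.5 to 82693, and 2 of 5 stellate, 2 of 5 endothelial and 1 of 5 cholangiocyte markers were lower. The lower cholangiocyte marker was Spp1, at 171 to 455 FPKM against 606 to 2796, and Krt19, Krt7, Epcam and Sox9, all low, were not called. The part of these in the Cyp3a11 result was not tested.

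In Srebf1 KO and Smyd2 KO livers, 0 of 8 members were called against control. SREBF1 is a transcription factor of fatty acid synthesis and SMYD2 is a lysine methyltransferase. In Srebf1 KO, 0.197% of all tested genes were higher and 0.181% lower, 0.378% or 73 genes in all (14 to 110 genes with 1 liver left out, the least without sgGFP replicate 1), and 2 members had an unadjusted p under 0.05. Cyp3a25 stood at 7520.1, 8503, 10500.4, 8946 and 8835 FPKM in replicates 1 to 5, and Cyp3a59 at 148, 170.4, 165, 145 and 174 FPKM. For Cyp3a25, 4 of 5 livers lay above the highest control value of 8094 FPKM, and for Cyp3a59, 3 of 5 lay above the highest of 154. The differences were 0.59 (SE 0.19, limma adjusted p = 0.165) and 0.81 (SE 0.21, adjusted p = 0.0830). Without sgGFP replicate 4, the control liver with the highest Cyp3a59, the difference of Cyp3a59 was 0.96 (adjusted p = 0.0239). With Srebf1 KO replicate 1 left out, the library with Srebf1 mRNA inside the control range, Cyp3a25 had a difference of 0.65 (adjusted p = 0.211) and Cyp3a59 one of 0.84 (adjusted p = 0.131). Cyp3a59 was higher in Srebf1 KO than in Irs1 KO (0.96, limma adjusted p = 0.0165), the only member called between those groups, where 1.6% of all genes differed.

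In Smyd2 KO livers 0 of 19295 genes were called, although 1384 had an unadjusted p under 0.05, of which 0 were members. Cyp3a11 ranged from 1883 to 4625 FPKM with a median of 2601, and Cyp3a25 from 4358 to 9641 with a median of 6489.6. Replicate 6 held the highest Cyp3a11 and the lowest Cyp3a25 of the group. Cyp3a41a and Cyp3a41b were listed at 0 in 6 of 6 livers, as in 7 of 7 Tbx3 KO livers. For Cyp3a11 the difference was -0.31 with a 95% interval of -1.08 to 0.46, which is wide. Smyd2 KO differed in 0 members from Irs1 KO (4.26% of all genes differed) and in 0 from Srebf1 KO (0.0777%).

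Taken by member, the order of the groups differed. For Cyp3a11 the means fell from control (3451 FPKM) through Srebf1 KO (3440.3), Smyd2 KO (2874), Bcl6 KO (2328) and Irs1 KO (1426) to Tbx3 KO (623), and of these neighbours Irs1 KO and Tbx3 KO differed. For Cyp3a25 the order was Srebf1 KO (8861), Bcl6 KO (7361), Smyd2 KO (6404), Irs1 KO (6079), control (5943) and Tbx3 KO (5451), and no neighbours differed. For Cyp3a59 it was Bcl6 KO (315), Srebf1 KO (160.5), Smyd2 KO (105), control (94.5), Irs1 KO (82.5) and Tbx3 KO (59.3), and Bcl6 KO differed from Srebf1 KO (limma adjusted p = 0.00589). For Cyp3a44 it was Bcl6 KO (210.5), control (13.1), Smyd2 KO (8.86), Srebf1 KO (8.75), Irs1 KO (7.38) and Tbx3 KO (2.25), with Bcl6 KO above control and Irs1 KO above Tbx3 KO (adjusted p = 0.0345). For Cyp3a13 it was Bcl6 KO (237), Smyd2 KO (182), Tbx3 KO (158), Irs1 KO (154), Srebf1 KO (153) and control (142), and no neighbours differed. Outside Bcl6 KO, Cyp3a16 had group means of 0.278 to 1.19 FPKM, with no call between those groups.

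Cyp3a11 and Cyp3a44 went together outside Bcl6 KO. Over the 29 livers of the other groups, Pearson's r of log2(FPKM + 1) was 0.92, and over all 34 it was 0.55. After subtracting group means it was 0.63 over 34 livers. Cyp3a25 and Cyp3a59 had an r of 0.73 over 29 livers and 0.56 after subtracting group means. Cyp3a11 and Cyp3a25 had an r of 0.21 over 29 livers and -0.29 after subtracting group means. These are descriptions across livers that share the group structure, and for both related pairs reads may be shared.

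**Figure D5:**
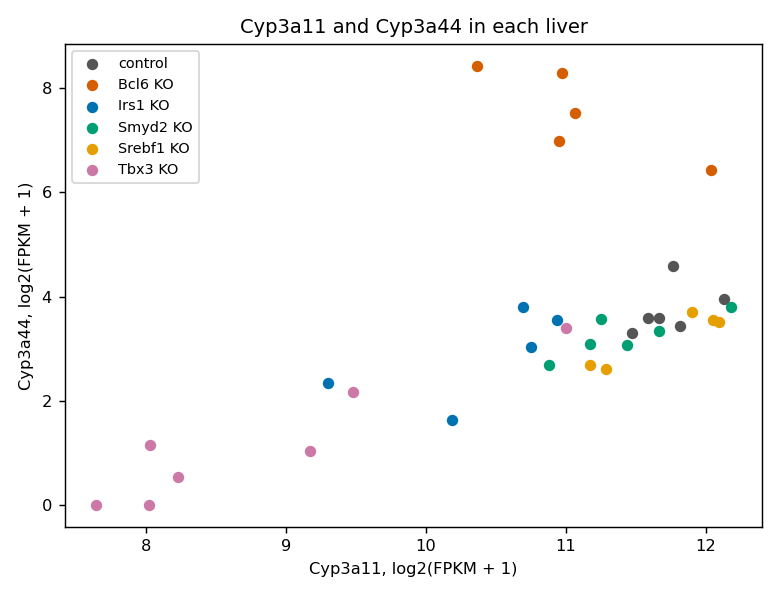
Cyp3a44 against Cyp3a11, both as log2(FPKM + 1), in 34 livers coloured by group. The 5 Bcl6 KO livers lie above the others, and the remaining 29 form a band (r = 0.92) with 6 of 7 Tbx3 KO livers at its lower end.

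Outside the family, the symbols most like each member over the 34 livers were found by Pearson's r. For Cyp3a16, Cyp3a41a and Cyp3a41b the closest was A1bg, with r of 0.986, 0.997 and 0.999, followed by Sult2a1 at 0.985, 0.997 and 0.998. For Cyp3a41a, Sult2a2 came next (0.995). With these 3 members high in 5 livers and at or near 0 in the other 29, their r values mostly set Bcl6 KO apart from the rest. Cyp3a44 was closest to Trf (0.931), Nt5e (0.917) and Cp (0.883), and Cyp3a59 to Tpm2 (0.849), Cyp2b13 (0.826) and Nt5e (0.825). Cyp3a44 and Cyp3a59 were also highest in Bcl6 KO, and the part of that group in these r values was not tested. Between Cyp3a44 and Cyp3a59, r was 0.78 over 34 livers and 0.49 over the 29 outside Bcl6 KO. Cyp3a11 was closest to Rcan2 (0.827), Slc22a29 (0.803) and Serpina7 (0.793). Cyp3a13 had Cfb (0.753), Man2a1 (0.742) and Esr1 (0.738), and Cyp3a25 had Abhd15 (0.755), Cyp2c29 (0.745) and Sugct (0.725). The other Cyp3a symbol in the table that was tested, Cyp3a57, lies next to the cluster and was low, at 5.22 ± 2.93 FPKM in control, and was called in none of the 5 comparisons (limma adjusted p = 0.162 to 0.964).

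The receptors that induce Cyp3a genes did not pass the test. Nr1i2 stood at 1235 ± 142 FPKM in control (n = 6) and had limma adjusted p-values of 0.566 to 0.920 in the 5 comparisons. Nr1i3 stood at 1033 ± 449 in control and at 1292 to 1597 in the knockout means (adjusted p = 0.226 to 0.800), and Por at 1826 ± 875 (adjusted p = 0.340 to 0.988). Of 17 tested regulators and partners of Cyp3a enzymes, 1 was higher in Bcl6 KO and 1 in Tbx3 KO. In both it was Hnf4a, a nuclear receptor of hepatocytes (0.42 and 0.36). The shares of all tested genes that were higher were 2.95% and 1.17%. In Tbx3 KO 2 were higher after median scaling and 3 without Tbx3 KO replicate 7. In Irs1 KO, Hnf4a, Rxra and Ppargc1a were higher and Hmox1 was lower, where 3.24% of all tested genes were higher and 7.61% lower. In Smyd2 and Srebf1 KO 0 of 17 passed. The median change of the list was between 0.01 and 0.17 over the 5 comparisons, and that of all tested genes between -0.12 and -0.00.

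Of 22 other genes known to respond to PXR or CAR, 8 were higher and 1 was lower in Bcl6 KO. Their median change was 0.46 against -0.07 for all tested genes, of which 2.95% were higher and 3.19% lower. Cyp2b13, another P450, stood at 65.9 ± 14.0 against 17.0 ± 17.4 FPKM (limma adjusted p = 0.0280) and the aldo-keto reductase Akr1b7 at 14.7 ± 5.19 against 0.939 ± 0.603 (1.79e-08). Cyp2a5, Abcc4, Slco1a4, Aldh1a7 and Papss2 had changes of 1.35, 1.57, 1.47, 1.03 and 1.09, and Ugt1a1, below the size set for naming genes, 0.64. The exporter Abcc3 fell by 1.40 (limma adjusted p = 5.57e-06). In Irs1 KO, where Cyp3a11 was lower, 8 of the 22 were lower and 2 higher, with a median of -0.71 against -0.12 for all tested genes. Of all tested genes, 7.61% were lower and 3.24% higher in that comparison. Gstm3, a glutathione transferase, stood at 31.8 ± 12.2 against 257 ± 70.2 FPKM (limma adjusted p = 4.62e-05) and the exporter Abcb1a at 12.1 ± 6.01 against 45.0 ± 9.61 (1.77e-05). Cyp2c55, Abcc4, Gsta1 and Gstm1 had changes of -1.43, -1.28, -2.07 and -1.06, and Abcc3 and Aldh1a7 were also lower, whereas Ces2a and Sult1d1 were higher. After median scaling the count was 6 lower and 4 higher. In Tbx3 KO, 5 were lower and 0 higher, with a median of -0.12 (0.02 after median scaling) against -0.06 for all tested genes. There, 1.37% of all tested genes were lower and 1.17% higher. Gstm3 fell by 2.32 and Abcc4 by 1.26, Cyp2b13 was listed at 0 in 7 of 7 livers (limma adjusted p = 0.0278), and the others were Abcb1a and Gstm1. In Smyd2 and Srebf1 KO 0 of 22 passed.

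Growth hormone and prolactin are known to set the levels of several Cyp3a genes. Of 13 tested genes of their receptors and signalling, 6 were higher and 0 lower in Bcl6 KO, and 5 were higher after median scaling. Their median change was 0.87 against -0.07 for all tested genes, of which 2.95% were higher and 3.19% lower. The prolactin receptor gene Prlr had 8471 ± 2749 FPKM against 327 ± 191 in control (limma adjusted p = 8.64e-12). Cux2, a transcription factor known for higher levels in female liver, stood at 751 ± 285 against 5.91 ± 2.60 FPKM (2.11e-11). Ghr, the growth hormone receptor, and Esr1, an oestrogen receptor, rose by 1.80 and 1.78, and Socs2 and Igfals by 1.28 and 1.13. In Srebf1 KO, Socs2 fell by 1.71 (limma adjusted p = 0.0167). In Smyd2 and Tbx3 KO 0 of 13 passed.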

How the data were processed

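Total RNA of 34 livers, 1 library each, was sequenced after SMARTer stranded library preparation, per the labels' protocols. The authors deposited FPKM for each gene symbol; the submitters' processing notes name featureCounts 1.6.4 and the builds mm10 and GRCh38 without their roles, and the aligner, annotation and strand setting are not stated there. Depth was estimated from the smallest steps of low values, not all of which were whole multiples, with GENCODE M21 transcript lengths.

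limma 3.58.1 in R 4.3.3 was fitted to log2(FPKM + 1) of 19295 genes, those that reached 1 FPKM in 5 or more libraries, as 1 fit of 6 groups with an intensity trend, two-sided, with Benjamini-Hochberg adjustment over all genes. The test was checked on simulated data. Alternatives were a pseudocount of 0.1, other filters, median scaling, quantile normalization, no trend, fits of 2 groups, sgGFP alone as control, a replicate block, summed members, and each liver left out, with the 19295 genes kept except for other filters. Alignments used Biopython 1.88. Transcript identity replaced the planned protein identity, for which no sequences were used here. The members and lists were chosen with earlier results of these data known. Named genes are the members, the targeted genes, the 3 symbols most correlated with each member, and list genes called with an absolute log2 change of 1 or more, besides Nr1i2, Nr1i3 and Por; others are named where a count was small, and some results under this rule were left out. Cell type markers of cholangiocytes, stellate cells, macrophages and lymphocytes were also tested: in Bcl6 KO 1 of 5, 1 of 5, 0 of 5 and 0 of 4 were lower.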

Additional observations from a re-analysis of the deposited data

Results flagged for a closer look

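A single liver stood apart from the rest of its group, by Dixon's criterion at 95%, in 7 of 41 tested groups of a member's values. Chance gives about 1 in 20 for independent, normally distributed values. The groups here share livers, and in some only 1 value lies above 0, so the count is not set against that rate. Cyp3a11 stood at 4197 FPKM in Bcl6 KO replicate 3, against 1317 to 2136 in the other 4 livers, and Cyp3a59 at 474 in the same liver, against 249.6 to 315. That liver also had the lowest Cyp3a16 and Cyp3a44 of its group. In Tbx3 KO replicate 7, Cyp3a11 stood at 2051 FPKM against 199.7 to 714 in the other 6, and Cyp3a44 at 9.56 against 0 to 3.47. Cyp3a59 stood at 154 FPKM in sgGFP replicate 4, against 65.4 to 97.1 in the other 5 controls. Cyp3a41a stood at 0.380 FPKM in Irs1 KO replicate 5 and at 0.176 in Srebf1 KO replicate 5, where the other 4 livers of each group were at 0. These last values are 2.12 and 1 times the smallest step between values in their libraries.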

How the results depend on the processing

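The direction of each called change from control was the same under the alternatives run. In Bcl6 KO, Cyp3a41a and Cyp3a41b were bound to pass through the filter, so their calls are left out here. The increase of Cyp3a13, Cyp3a16, Cyp3a44 and Cyp3a59 in Bcl6 KO kept its side of the threshold under the alternatives. So did the decrease of Cyp3a11 and Cyp3a44 in Tbx3 KO. The exception was Cyp3a59 summed with Cyp3a25 (0.36, limma adjusted p = 0.316), a sum dominated by Cyp3a25. With the filter at an FPKM of 5, Cyp3a16 too passed it through Bcl6 KO alone, its highest value elsewhere being 3.25 FPKM. In Irs1 KO the number of lower members was 0 to 1 when 1 liver was left out, and 2 with the replicate block, where Cyp3a44 passed (-1.02, adjusted p = 0.0448). The number of higher members in Srebf1 KO was 0 to 1 when 1 liver was left out. Cyp3a59 in Tbx3 KO also passed with sgGFP alone as control (-0.77, adjusted p = 0.0498). The replicate numbers do not pair the livers: over 83 pairs with the same number, the median correlation of deviations was -0.00, and 6 of 34 livers correlated best with their own number. The block changed no other call of a member against control. Only Tbx3 KO has a replicate 7, so the block gives that liver no part in the Tbx3 KO difference. In this respect the block is like the fit without Tbx3 KO replicate 7. The number of members that differed among the 6 groups was 6 to 8 over the alternatives. This count includes Cyp3a41a and Cyp3a41b, with the same limit of the filter. Counts over all genes moved further: in Bcl6 KO 1185 became 750 in a fit of 2 groups and 774 without Bcl6 KO replicate 4, in Tbx3 KO 490 became 96 in a fit of 2 groups, 1931 with the block, 1473 without Tbx3 KO replicate 7, and 257, 295, 313, 261 and 299 without sgGFP replicates 1 and 2 and Tbx3 KO replicates 2, 3 and 5, and in Srebf1 KO 73 became 10, 152, 133 and 44 with 2 groups, sgGFP alone, the block and no trend. It was 14, 30 and 110 without sgGFP replicates 1, 3 and 4, and 39, 25, 20 and 41 without Srebf1 KO replicates 2 to 5. In Smyd2 KO 0 became 12 with sgGFP alone, and 3, 1 and 4 without sgGFP replicate 4, sgLacZ replicate 1 and Smyd2 KO replicate 6. In Srebf1 KO 52.1% of calls were higher, and 72.2% after median scaling. The causes were not tested. Depth limits Cyp3a16, Cyp3a41a and Cyp3a41b outside Bcl6 KO, where they lie at or near the smallest values of the table.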
